A study of Mus musculus with 6 samples.

Results

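The 46 genes described here encode the machinery that copies DNA in S phase, together with enzymes that supply its building blocks and E2f1, a transcription factor of S-phase entry. They were taken by symbol from the 48587 genes of a count table made from 4T1 cells, which derive from a mammary carcinoma of the mouse. The table held all 46 of them, and all 46 were among the 13166 genes that passed the abundance filter of 1 cpm or more in 3 or more libraries (cpm are counts per library set to a common size). METTL7A1 is a putative methyltransferase that 4T1 cells hardly express. The transcriptome of cells made to express it was compared with that of mock cells. Total RNA depleted of ribosomal RNA was sequenced from 3 libraries of cells stably transfected with FLAG-tagged Mettl7a1 cDNA under a CMV promoter (METTL7A1) and from 3 libraries of mock cells stably transfected with the empty vector. Both kinds of cell grew in DMEM/F12 with serum, and the protocol describes maintenance under G418. Whether each group was a pool or a single clone is not given in the sources used here, so a difference between the groups cannot be told apart from a difference between 2 selected populations of cells.

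DNA is copied in a fixed order of steps. In G1, the origin recognition complex (ORC), CDC6 and CDT1 load the ring-shaped MCM helicase onto origins, a step called licensing that geminin restrains. In S phase CDC45 and the GINS complex join the helicase, DNA polymerase alpha with its primase lays down primers, and polymerases epsilon and delta extend them, held to the template by the PCNA ring that replication factor C (RFC) opens and closes. Ribonucleotide reductase makes the deoxynucleotides, FEN1 and LIG1 join the Okazaki fragments of the lagging strand, RPA covers single strands, and CAF-1 puts histones back onto the new DNA. Many of these genes are transcribed under E2F factors and peak around the start of S phase, and carcinoma cells in culture express them at high levels.

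Libraries held between 18386780 and 28459338 counts. Mettl7a1 counts were 6355, 11358 and 10398 in METTL7A1 replicates 1 to 3 against 30, 30 and 29 in the mock replicates, a log2 fold change of 8.17 ± 0.14 (SE, n = 3 per group) with an adjusted p of 4.89e-11. All adjusted p values come from edgeR's quasi-likelihood test with Benjamini-Hochberg adjustment over the 13166 genes, and a gene was called at an adjusted p under 0.05. Krt8, Krt18, Krt7, Epcam, Cdh1 and Cldn7, markers of mammary epithelium, had at least 1142 counts in every library. Of 8 markers of blood, vessel, stromal, glial and muscle cells, Cd3e had no counts and Ptprc had at most 8, and 5 were under the filter, while Cd68, a macrophage gene, was at 12.8 cpm in METTL7A1 and 5.43 cpm in mock cells. Together the 8 markers made 17.3 to 18.8 cpm in the METTL7A1 and 10.1 to 12 cpm in the mock libraries. The part of these markers in the values below was not tested.

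E2F sites are one feature that the choice of genes did not use. RefSeq promoters (build GRCm38.p6, 250 bases before to 50 after the start) were matched for 38 of the 46 genes. The letters TTTCCCGC or TTTGGCGC, 2 forms of the E2F site, occurred on either strand in 12 of these 38 promoters (31.6%), against 3.73% of 8908 tested genes and 1.8% of 27018 genes. The 12 genes were Cdc6, Cdt1, Mcm3, Mcm5, Mcm6, Mcm7, Mcm8, Gins3, Pola1, Pold1, Pole2 and Rfc3. CCAAT was found in 63.2% of the replication promoters and 43.4% of tested genes, and TTTGAA, the core of the CHR element of G2/M genes, in 13.2% and 13.9%. A match describes letters in a window and is not a measured site. The stretches below are those with matches before the start and with no base in an annotated exon. The matches of the other genes among the 12 are not printed. These stretches belong to 4 genes (Cdc6 and Mcm5 fell, Pola1 rose, Mcm6 was not called). Each is read 5′ to 3′ on the strand of the gene with the E2F letters in capitals. The Cdc6 stretch lies inside the annotated span of its gene and the others lie outside theirs.
Cdc6, chr11:98907983-98908050, plus strand: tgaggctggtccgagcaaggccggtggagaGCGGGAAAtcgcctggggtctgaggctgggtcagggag
Mcm5, chr8:75109330-75109397, plus strand: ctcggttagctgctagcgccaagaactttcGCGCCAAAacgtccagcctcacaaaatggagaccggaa
Mcm6, chr1:128359715-128359845, minus strand: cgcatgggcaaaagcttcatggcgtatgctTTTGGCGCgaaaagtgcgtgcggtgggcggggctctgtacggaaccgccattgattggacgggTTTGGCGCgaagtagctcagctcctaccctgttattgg
Pola1, chrX:93632256-93632323, minus strand: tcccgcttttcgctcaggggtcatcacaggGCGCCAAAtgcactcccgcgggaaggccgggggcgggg

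Relative to the start base, counted as 0, the matches begin at -138 in Cdc6 and in Pola1, at -149 in Mcm5, and at -110 and -47 in Mcm6. Cdc6, Mcm5 and Pola1 carry the letters on the opposite strand of the gene, so that the printed stretch shows their reverse complement.

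Of the 46 genes, 22 (47.8%) differed between METTL7A1 and mock cells, where 42.1% of all genes tested did. Lower levels prevailed. In METTL7A1 cells 17 replication genes fell (37%, with 21% of all genes lower) and 5 rose (10.9%, with 21.1% of all genes higher). The changes were small, from -0.61 (Rrm2) to 0.48 (Mcm8) on the log2 scale, that is at most 34.5% lower or 39.5% higher. The median log2 fold change of the 46 genes was -0.15, against -0.03 over all genes tested, with 32 values below and 14 above 0. Among 8520 other genes at least as abundant as the lowest of the 46, 47.5% were called and the median was -0.03. The levels of 28 of the 46 genes (60.9%) did not overlap between the groups, 21 of them lower and 7 higher in METTL7A1 cells, where 51.6% of all genes did not overlap. At the thresholds of the study (adjusted p under 0.01 and a log2 change over 1.5), which 2.48% of all genes passed, edgeR called 0 of the 46 and DESeq2 called 0, while 28 of them had an unadjusted p under 0.05.

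**Figure D1:**
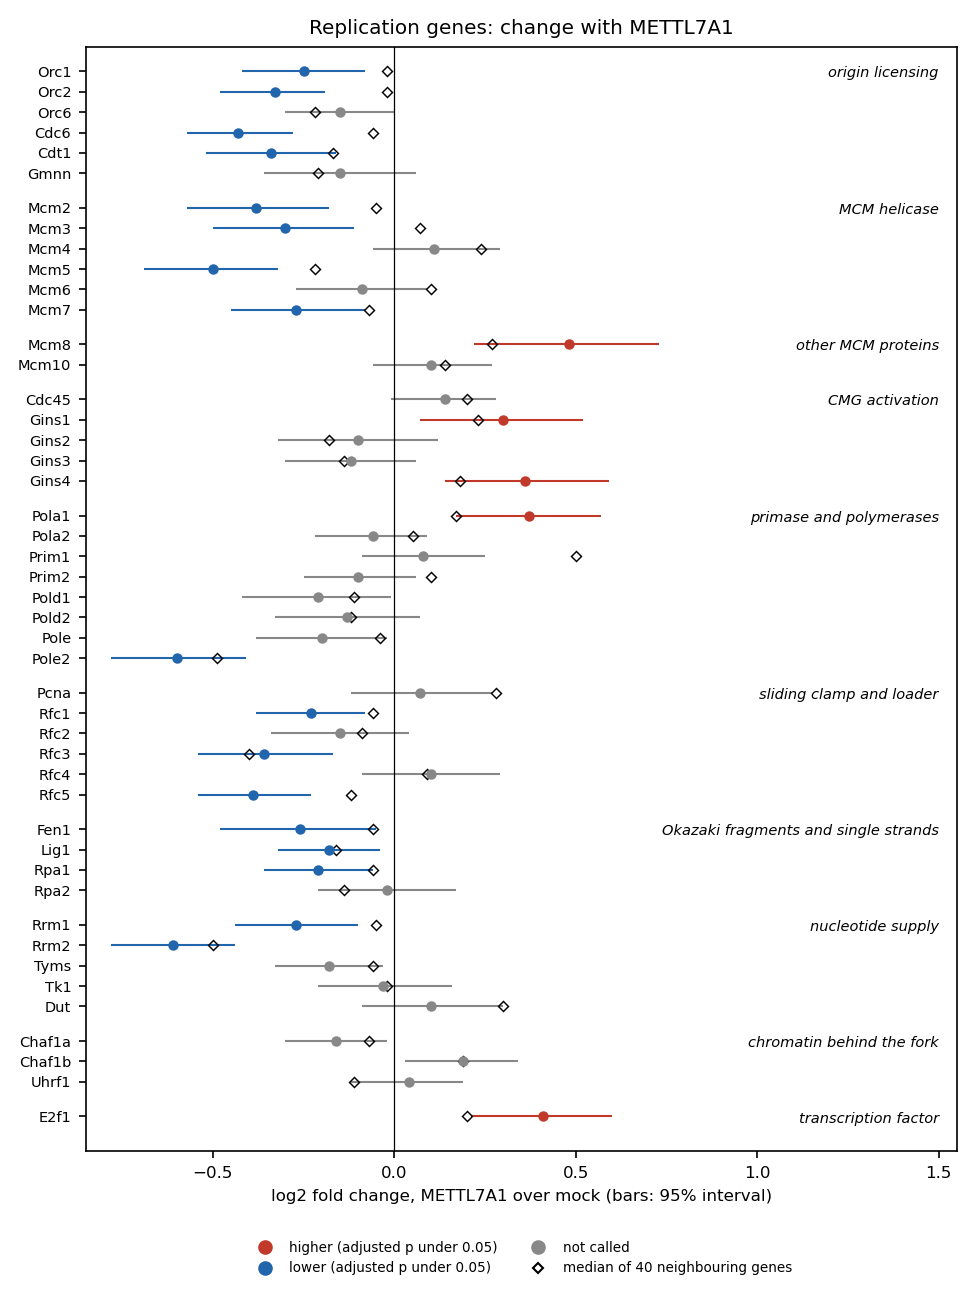
Log2 fold change of each of the 46 replication genes in METTL7A1 over mock cells (x axis), grouped by role, with 95% intervals as bars and the median change of the 40 nearest abundant genes as open diamonds. The 17 blue genes fell and the 5 red genes rose at an adjusted p under 0.05, and all changes lie between -0.61 and 0.48.

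These counts moved with single libraries, as did the share of all genes called, which was 42.1% in the main fit. Without METTL7A1 replicate 2 there were 11 lower and 3 higher genes, with 29.1% of all genes called. Without mock replicate 1 there were 10 lower genes (32.7% of all genes called), and without mock replicate 2 also 10 (35.3%). With no abundance filter, 10 were lower, with 20.9% of all genes called. The 12 genes called in each of the 6 fits that left out a library were Orc2, Cdc6, Cdt1, Mcm2, Mcm5, Mcm8, Pola1, Pole2, Rfc3, Rfc5, Rrm2 and E2f1. In cells measured in bulk, fewer cells in S phase and less RNA of a gene per cell cannot be told apart.

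Genes of origin licensing shared their sign, including Gmnn, whose protein geminin restrains licensing. All 6 had a negative log2 fold change (-0.43 to -0.15, median -0.29) and 4 fell, namely Cdc6, Cdt1, Orc2 and Orc1. Cdc6, the ATPase that joins ORC at the origin, measured 65.8, 66.2 and 61.9 cpm in mock replicates 1 to 3 and 49.8, 47 and 47.4 cpm in METTL7A1 replicates 1 to 3. Every METTL7A1 library lay below every mock library. Cdc6 fell by 0.43 ± 0.07 on the log2 scale (SE, n = 3 per group), with an adjusted p of 0.000469. Cdt1, which brings MCM to the origin, was at 78.7, 79.6 and 68 cpm in the mock libraries and 55.2, 62.8 and 60 cpm in the METTL7A1 libraries, again without overlap, and fell by 0.34 ± 0.08 (adjusted p = 0.00611). Orc2, a core subunit of ORC, had 83.4, 83.7 and 80.7 cpm in mock and 67.1, 62.5 and 67.6 cpm in METTL7A1 cells. Its groups were well separated and its log2 change was -0.33 ± 0.07 (adjusted p = 0.0021). Orc1, the ORC subunit that is degraded and renewed each cycle, changed by -0.25 with an adjusted p of 0.0227, and lost its call in 4 of the 6 fits without a library. Orc6 (-0.15, adjusted p = 0.0963) and Gmnn, the geminin gene (-0.15, adjusted p = 0.228), were not called, and relative to their chromosome neighbours, described further on, they were at 0.07 and 0.06.

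The MCM helicase is a ring with 1 copy of each of MCM2 to MCM7. Mcm5, Mcm2, Mcm3 and Mcm7 fell, while Mcm6 and Mcm4 were not called. Mcm5 (chr8:75109569-75128439) measured 253, 237 and 206 cpm in the mock libraries and 161, 164 and 165 cpm in the METTL7A1 libraries. Its lowest mock library was still above its highest METTL7A1 library, and its log2 change was -0.50 ± 0.08 with an adjusted p of 0.00067. Mcm2 was at 153, 146 and 126 cpm in mock and 101, 109 and 117 cpm in METTL7A1 cells, a change of -0.38 ± 0.09 (adjusted p = 0.00538). For Mcm3 the mock values were 251, 246 and 202 cpm and the METTL7A1 values 191, 188 and 189 cpm. Mock replicate 3 was the closest of the mock libraries to the METTL7A1 libraries, which lay below it, and the change was -0.30 ± 0.09 (adjusted p = 0.0182). Mcm7 had 171, 168 and 142 cpm in mock and 129, 140 and 131 cpm in METTL7A1 cells, almost touching, and changed by -0.27 ± 0.08 (adjusted p = 0.0241). Mcm3 and Mcm7 each kept their call in 3 of the 6 fits without a library.

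The changes of Mcm4 and Mcm6 were not tested against those of the other subunits. Mcm4 measured 167, 180 and 150 cpm in the mock libraries and 171, 183 and 184 cpm in the METTL7A1 libraries. These values overlapped, and the log2 change of 0.11 had a 95% interval of -0.06 to 0.29 (adjusted p = 0.283). Mcm6 measured 225, 231 and 193 cpm in mock and 195, 209 and 205 cpm in METTL7A1 cells. Its METTL7A1 values lay within the mock range, and the change of -0.09 had an interval of -0.27 to 0.09 (adjusted p = 0.401). Relative to their chromosome neighbours, described further on, the changes were -0.32 (Mcm2), -0.37 (Mcm3), -0.12 (Mcm4), -0.28 (Mcm5), -0.19 (Mcm6) and -0.19 (Mcm7).

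**Figure D2:**
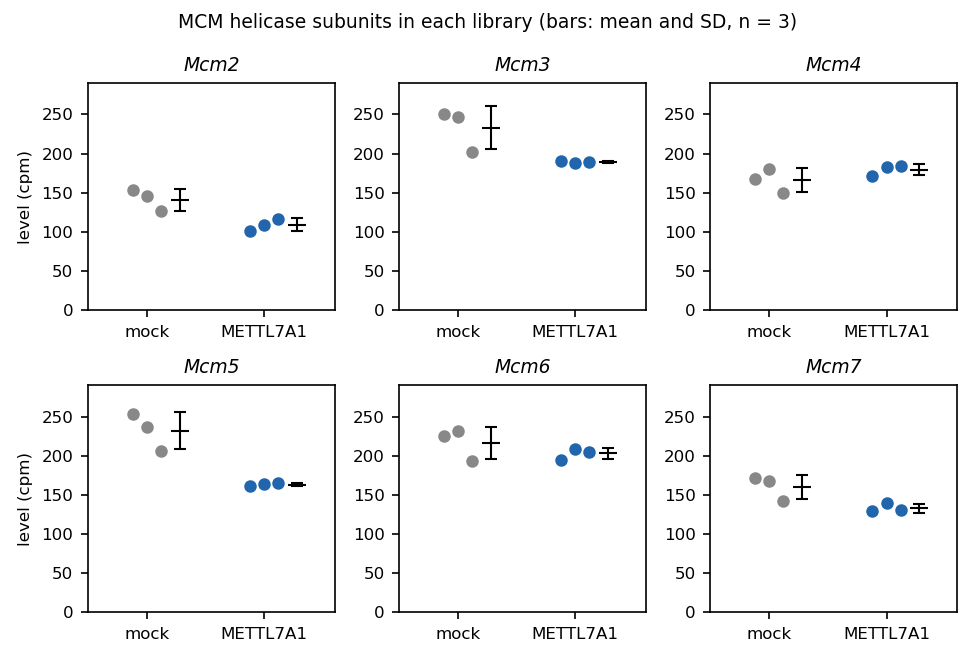
Levels in cpm (y axis, from 0) of the 6 genes of the MCM2 to MCM7 helicase in each mock (grey) and METTL7A1 (blue) library, with mean and SD of 3 libraries beside the points. Mcm5 shows the clearest gap, 206 to 253 cpm in mock against 161 to 165 cpm in METTL7A1 cells, while the libraries of Mcm4 and Mcm6 overlap.

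Ratios between genes in the same library do not depend on how libraries are scaled. They can still carry changes that a gene shares with its chromosome neighbours, described further on. The 8 pairs computed were chosen after their values were seen and carry no test, and all but Pola1 to Prim1 did not overlap between the groups. Per kilobase of exon, the ratio of Mcm5 to Mcm4 was 1.57, 1.36 and 1.42 in mock replicates 1 to 3 and 0.976, 0.933 and 0.93 in METTL7A1 replicates 1 to 3, so that Mcm5 passed from the more to the less abundant of the pair. The median changes of their neighbours were -0.22 (Mcm5) and 0.24 (Mcm4). Mcm2 to Mcm6 went from 0.848 ± 0.0292 in mock to 0.696 ± 0.0361 in METTL7A1 cells (mean ± SD, n = 3) without overlap, with neighbours at -0.05 (Mcm2) and 0.10 (Mcm6). Within each group, the most abundant of the 6 MCM genes per kilobase exceeded the least abundant by a factor of 1.84 in mock and 1.93 in METTL7A1 cells.

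Mcm8 and Mcm10 share the name but are not part of the ring. Mcm8, a helicase of DNA repair by recombination, was the replication gene with the largest rise. It measured 22.9, 21.1 and 20.1 cpm in METTL7A1 cells and 16.5, 16.9 and 12.8 cpm in mock cells, without overlap, and rose by 0.48 ± 0.12 on the log2 scale (adjusted p = 0.00668). Mcm10, an initiation factor, changed by 0.10 (adjusted p = 0.297).

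Among the 5 genes that activate the helicase, 2 rose. Gins4 measured 24.7, 30.4 and 29.7 cpm in METTL7A1 cells and 22, 24.1 and 20 cpm in mock cells, with the lowest METTL7A1 library just above the highest mock library, and rose by 0.36 ± 0.10 (adjusted p = 0.0144). Gins1, at a mean of 11.9 cpm in METTL7A1 and 9.69 cpm in mock cells, rose by 0.30 (adjusted p = 0.0373) but was called in 1 of the 6 fits without a library and not by DESeq2 (adjusted p = 0.0713). The other 2 GINS subunits went the other way without being called, Gins2 with -0.10 (adjusted p = 0.446) and Gins3 with -0.12 (adjusted p = 0.282). The 4 proteins form a complex with 1 copy of each. The ratio of Gins4 to Gins2 per kilobase, a pair chosen after its values were seen, was 3.26, 3.98 and 3.51 in mock and 4.66, 5.24 and 4.9 in METTL7A1 cells. The median changes of their chromosome neighbours were 0.18 (Gins4) and -0.18 (Gins2). Cdc45 had a log2 change of 0.14 (adjusted p = 0.121).

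Among the 8 genes of primase and replicative polymerases, 1 rose and 1 fell. Pola1, the catalytic subunit of polymerase alpha (chrX:93304767-93632155), measured 297, 260 and 253 cpm in METTL7A1 cells and 196, 200 and 232 cpm in mock cells. All METTL7A1 libraries were above the highest mock library, replicate 3, and the log2 change was 0.37 ± 0.09 (adjusted p = 0.00782). The genes of its partners Pola2 (-0.06), Prim1 (0.08) and Prim2 (-0.10) were not called, and the ratio of Pola1 to Prim1 per kilobase overlapped between the groups, at 1.21, 1.15 and 1.53 in mock and 1.67, 1.48 and 1.58 in METTL7A1 cells. Pole2, an accessory subunit of polymerase epsilon (chr12:69201779-69228190), was at 33.4, 31.4 and 29.7 cpm in mock and 22.4, 20.5 and 19.7 cpm in METTL7A1 cells. Its groups were far apart relative to their spread, and it fell by 0.60 ± 0.09 (adjusted p = 0.000252). Pole, the catalytic subunit, changed by -0.20 (adjusted p = 0.0665), and the ratio of Pole2 to Pole per kilobase went from 0.684 ± 0.0595 in mock to 0.521 ± 0.0105 in METTL7A1 cells without overlap. The median changes of their chromosome neighbours were -0.49 (Pole2) and -0.04 (Pole). Relative to these neighbours, Pole2 changed by -0.11 and Pole by -0.17, neither of them called. The genes of polymerase delta were not called, Pold1 with -0.21 (adjusted p = 0.0881) and Pold2 with -0.13 (adjusted p = 0.292).

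The loader of the sliding clamp fell in part, and the clamp itself was not called. Pcna measured 162, 176 and 144 cpm in the mock libraries and 158, 169 and 180 cpm in the METTL7A1 libraries. These ranges overlapped, and the log2 change was 0.07 with an interval of -0.12 to 0.27 (adjusted p = 0.539). Rfc5 had 71, 70.4 and 63.8 cpm in mock and 51.7, 51.3 and 54.1 cpm in METTL7A1 cells, a clear gap, and fell by 0.39 ± 0.07 (adjusted p = 0.00122). Rfc3 had 27.8, 31.5 and 27.2 cpm in mock and 22.5, 21.8 and 23.3 cpm in METTL7A1 cells, also apart, and fell by 0.36 ± 0.08 (adjusted p = 0.0061). Rfc1, the large subunit, was at 143, 156 and 147 cpm in mock and 123, 131 and 127 cpm in METTL7A1 cells. Its groups did not overlap and it fell by 0.23 ± 0.07 (adjusted p = 0.0197), but it was called in 3 of the 6 fits without a library. Rfc2 (-0.15, adjusted p = 0.192) and Rfc4 (0.10, adjusted p = 0.381) were not called. RFC5 and RFC4 sit in the same loader with 1 copy of each, and the ratio of their genes per kilobase was 0.989, 0.949 and 1.02 in mock and 0.73, 0.658 and 0.726 in METTL7A1 cells. This pair, too, was chosen after its values were seen, and the neighbours had median changes of -0.12 (Rfc5) and 0.09 (Rfc4).

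Of the 4 lagging-strand and single-strand genes, 3 were called. Fen1, the flap endonuclease (-0.26, adjusted p = 0.0481), Rpa1, the large RPA subunit (-0.21, adjusted p = 0.0252), and Lig1, the ligase of Okazaki fragments (-0.18, adjusted p = 0.0366), fell. Lig1 was called in none of the 6 fits that left out a library, Fen1 in 1 and Rpa1 in 3, and the levels of Fen1 overlapped between the groups. Rpa2 changed by -0.02 (adjusted p = 0.885).

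Both subunits of ribonucleotide reductase fell, and the small one fell more when chromosome neighbours were not taken into account. Rrm2, the small subunit whose level rises in S phase (chr12:24708241-24714146), measured 245, 274 and 237 cpm in mock replicates 1 to 3 and 163, 162 and 171 cpm in METTL7A1 replicates 1 to 3. The lowest mock library was far above the highest METTL7A1 library, and the log2 change of -0.61 ± 0.08 (adjusted p = 0.000117) was the largest of the 46 genes. Rrm1, the large subunit, was at 206, 223 and 189 cpm in mock and 167, 174 and 173 cpm in METTL7A1 cells, without overlap, and fell by 0.27 ± 0.08 (adjusted p = 0.0168). Within libraries, the ratio of Rrm2 to Rrm1 per kilobase was 2.17, 2.23 and 2.28 in mock and 1.78, 1.69 and 1.8 in METTL7A1 cells. The median changes of their chromosome neighbours were -0.50 (Rrm2) and -0.05 (Rrm1). Relative to these neighbours, Rrm2 changed by -0.10 and Rrm1 by -0.22, neither of them called. Other enzymes of nucleotide supply were not called, namely thymidylate synthase Tyms (-0.18, adjusted p = 0.0568), thymidine kinase Tk1 (-0.03, adjusted p = 0.821) and the dUTPase Dut (0.10, adjusted p = 0.386).

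Genes for chromatin behind the fork were not called. The CAF-1 subunits Chaf1a (-0.16, adjusted p = 0.0587) and Chaf1b (0.19, adjusted p = 0.0509) lay just outside the threshold with opposite signs, and Uhrf1, which maintains DNA methylation at the fork, changed by 0.04 (adjusted p = 0.712). E2f1, a transcription factor of many of the other genes, measured 28.9, 33.1 and 34.1 cpm in METTL7A1 and 25.6, 24.4 and 22.7 cpm in mock cells. All METTL7A1 libraries were higher, and E2f1 rose by 0.41 ± 0.09 (adjusted p = 0.00354), opposite in sign to the median of the 46 genes.

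The 12 genes with E2F letters in their promoter had a median log2 change of -0.29 and the 26 without them -0.14. Of the 12, 7 fell, 2 rose and 3 were not called. Of the 26, 10 fell, 1 rose and 15 were not called. With the neighbour offset described further on, Cdc6, Mcm3 and Mcm5 of the 12 were called lower. So were Orc1, Orc2, Mcm2, Rfc5 and Prim1 of the 26. Other forms of the E2F site were not searched for, and the difference between the 12 and the 26 was not tested. The 4 stretches printed above came from genes with changes of -0.50 (Mcm5), -0.43 (Cdc6), -0.09 (Mcm6) and 0.37 (Pola1).

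By level per kilobase of exon, Rrm2 led in mock cells with 115 cpm per kilobase, followed by Pcna (106), Mcm3 (76.9), Tk1 (75.5) and Mcm5 (67). In METTL7A1 cells Pcna led with 111, ahead of Rrm2 (75.3), Tk1 (74), Mcm3 (62.4) and Pola1 (50.5). Close ranks did not differ beyond their spread, as for Rrm2 (SD 8.86) and Pcna (SD 10.6) in mock cells or Rrm2 (SD 2.36) and Tk1 (SD 3.15) in METTL7A1 cells, while Pcna (SD 7.49) and Rrm2 were far apart in METTL7A1 cells. The lowest levels in mock cells were those of Mcm8 (4.42) and Gins2 (4.57).

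Summed over the 46 genes, the level was 4376, 4413 and 3997 cpm in mock replicates 1 to 3 and 3820, 3886 and 3868 cpm in METTL7A1 replicates 1 to 3. Mock replicate 3 stood between the other mock libraries and the METTL7A1 libraries. It was below the mean of the other mock libraries in 39 of the 46 genes (median log2 difference -0.15, against -0.04 over all genes tested). The median coefficient of variation of the 46 genes was 7.7% in mock and 4.64% in METTL7A1 cells, and 7.17% and 6.23% for the genes of like abundance. Without mock replicate 3 the 46 genes held 21 calls, of which 19 were among the 22, and 44.5% of all genes were called.

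**Figure D3:**
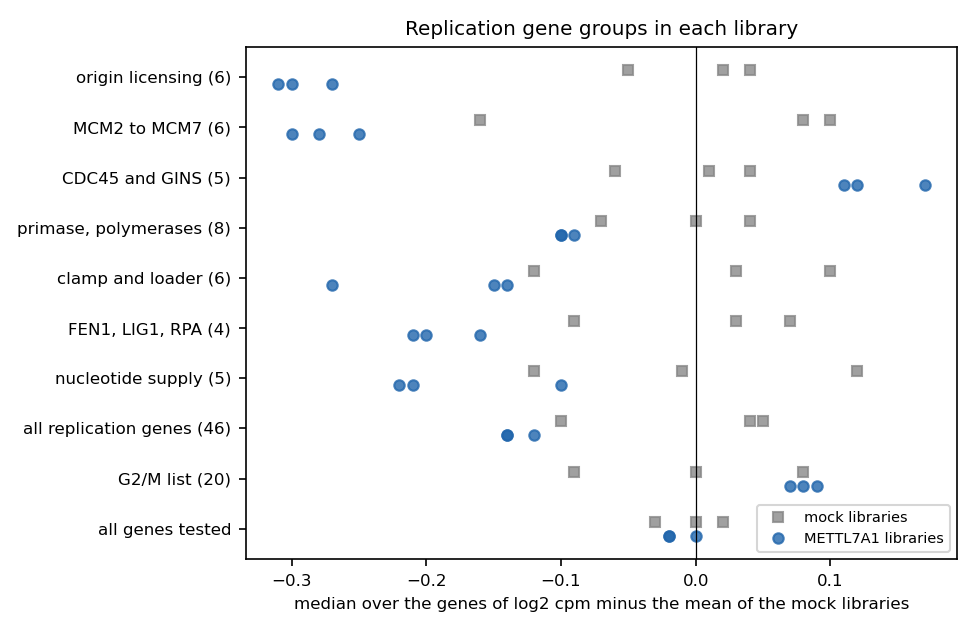
Median over the genes of each group of log2 cpm minus the mean of the mock libraries (x axis), in each mock (grey squares) and METTL7A1 (blue circles) library, with the number of genes in brackets. Licensing genes lie at -0.31 to -0.27 in METTL7A1 and -0.05 to 0.04 in mock cells, and the median of all 46 genes at -0.14 to -0.12 against -0.10 to 0.05.

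Changes of the replication genes followed their place in the genome. For each gene, a neighbour median was taken, the median log2 change of the 40 genes closest to it on the chromosome with an average log2 cpm over 2. These 40 genes spanned 0.816 to 24.2 Mb. Across the 46 genes, the change of the gene and the median of its neighbours had a Pearson r of 0.77 and a Spearman rho of 0.69, and across the 8520 other genes of like abundance 0.44 and 0.51. The points share all libraries, and close genes share neighbours. Of the 22 called genes, 21 had the same sign as their neighbours (95.5%), as did 77.6% of 4044 other called genes. Mcm3 was the exception (-0.30, neighbours 0.07).

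The strongest falls lay on a chromosome that was lower as a whole. Rrm2 and Pole2, both on chromosome 12, had neighbour medians of -0.50 and -0.49, and the median of the 364 abundant genes of that chromosome was -0.42. Whether the copy number of chromosomes differed between the transfected populations was not tested, so its part in these values is not known. Rfc3 on chromosome 5 (-0.36) lay among neighbours at -0.40. On chromosome 2, all 6 replication genes had a positive log2 change, Mcm8, E2f1 and Gins1 with a call and Mcm10, Pcna and Dut without, and their neighbours had medians from 0.14 to 0.30. Pcna and Mcm8 lie 0.563 Mb apart and so share neighbours. On chromosome 5 all 7 replication genes had a negative change. Prim1 on chromosome 10 had the highest neighbour median (0.50) while its own change was 0.08.

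Of the 22 called genes, 11 had a neighbour median beyond 0.15 in their own direction, among them all 5 that rose. The other 11 had neighbours within 0.15 of 0, and all 11 fell. With the neighbour median as an offset in the edgeR fit, 8 of the 46 genes were called lower and 0 higher (17.4%). Of all 13166 genes tested, 31.5% were called with the offset, 1762 lower and 2384 higher. At an unadjusted p under 0.05, 1 of the 46 was higher and 15 were lower. The 7 genes called lower both with and without the offset were Cdc6 (-0.37, adjusted p = 0.00173), Mcm3 (-0.37, adjusted p = 0.00816), Mcm2 (-0.32, adjusted p = 0.0163), Orc2 (-0.31, adjusted p = 0.00408), Mcm5 (-0.28, adjusted p = 0.0251), Rfc5 (-0.26, adjusted p = 0.015) and Orc1 (-0.23, adjusted p = 0.0421). Of these, 6 load or form the MCM helicase and Rfc5 belongs to the clamp loader. Prim1 was called with the offset alone (-0.43, adjusted p = 0.00176). The neighbour medians came from the same libraries and entered the fit as fixed values. Adjusted p values with the offset therefore leave out the error of these medians. Relative to their neighbours, Rrm2 changed by -0.10 (adjusted p = 0.339), Pole2 by -0.11 (adjusted p = 0.378), E2f1 by 0.21 (adjusted p = 0.0903) and Pola1 by 0.19 (adjusted p = 0.134). The median of the 46 genes was -0.11 with the offset, against 0.01 over all genes tested.

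**Figure D4:**
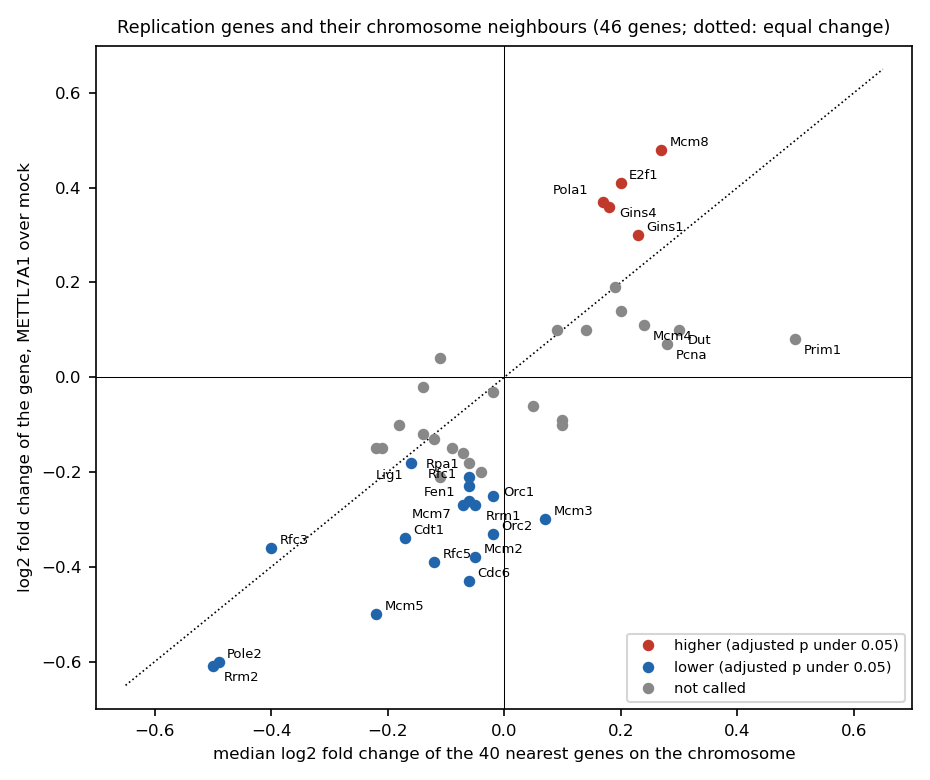
Log2 fold change of each of the 46 replication genes (y axis) against the median log2 fold change of its 40 nearest abundant neighbours on the chromosome (x axis), with equal change as a dotted line. Rrm2 and Pole2 sit near the line at about -0.50 on the x axis, while Cdc6, Mcm2, Orc2 and Mcm3 lie well below it near 0.

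Other genes of the pathway showed a similar share of calls. Of 77 symbols in a wider replication list, 75 were tested, 18 fell (24%) and 12 rose (16%), with a median of -0.09. The 40% called compare with 42.1% of all genes tested (21% lower and 21.1% higher). Without METTL7A1 replicate 2, mock replicate 1 or mock replicate 2, the number of the 75 genes that rose was 6, 7 and 7. These fits called 29.1%, 32.7% and 35.3% of all genes. E2f6, a repressor of the E2F family, had the smallest p of the list and was at 40, 39.1 and 36.3 cpm in mock and 16.2, 16.9 and 17.4 cpm in METTL7A1 cells (log2 change -1.19 ± 0.08, adjusted p = 1.23e-06). It was not typical of its class. Of the 12 listed genes of E2F factors, their partners and the RB family, 6 rose (50%) and 2 fell (16.7%), with a median of 0.25. Mcm9, the partner of MCM8 in recombination, fell by 0.99 (adjusted p = 1.05e-05), while Mcm8 rose. The 40 neighbours of Mcm9 spanned 17.1 Mb and had a median of 0.42. Asf1a, a gene within the span of Mcm9, also fell (-0.56, adjusted p = 0.000339). Whether a shorter stretch around both genes was lower was not tested. Ccne2, cyclin E2 of the G1/S transition, fell by 0.74 (adjusted p = 2.59e-05), Supt16, a subunit of the histone chaperone FACT, by 0.56 (adjusted p = 0.000112) and Shmt1, which feeds thymidylate synthesis, by 0.53 (adjusted p = 0.000166). E2f6, Mcm9, Ccne2, Supt16 and Shmt1 were lower with the neighbour offset too, with adjusted p values up to 0.0341. For Mcm9, this offset cannot show a change of a stretch much shorter than 17.1 Mb.

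Genes of the G2 and M phases, the part of the cycle that follows replication, were read alongside. Of 20 such genes 6 rose (30%, where 21.1% of all genes rose) and 0 fell by edgeR. The 30% called compare with 42.1% of all genes tested. The median was 0.06, and 1 gene was lower at an unadjusted p under 0.05. DESeq2 called 7 higher and 0 lower, with 40.1% of all genes called. Without mock replicate 3, edgeR called 2 lower, with 44.5% of all genes called. Cdk1, the kinase that drives entry into mitosis, was at 245, 240 and 248 cpm in METTL7A1 and 176, 187 and 161 cpm in mock cells, a log2 change of 0.49 ± 0.08 (adjusted p = 0.00046). Bub1 (0.45) and Bub1b (0.30) of the spindle checkpoint, Tpx2 (0.44) of the spindle and the mitotic kinase Aurka (0.33) also rose. With the neighbour offset 1 of the 20 was higher, where 2384 of all 13166 genes were, and it is not among the genes named here. Cdk1, whose neighbours had a median of 0.47, was at 0.01 with the offset (adjusted p = 0.928). The difference between the replication genes and the G2/M genes was not tested.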

How the data were processed

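Total RNA-seq of 6 libraries of 4T1 cells (METTL7A1 and mock, n = 3 each, called biological triplicates) was read as deposited. The authors trimmed reads with BBDuk, aligned pairs to mm10 with STAR (version 2.5.3a per the submitters' processing notes) and assigned them to Ensembl genes with featureCounts. The deposited values are raw counts per gene, not normalized. The Length column that the authors deposited is another value of the annotation, the exon length in bases, and was used for levels per kilobase. How strand and reads mapping to several places were treated is not given in the sources used here. AY036118 lies within Gm42418 on the opposite strand and reached 2665015 counts, against at most 224214 for Gm42418, which counting without strand could not give. The lowest count of AY036118 in a library was 92294, so it took an uneven part of the library totals. Of the 46 genes, 1 shared exon bases with another gene of the table on the same strand (Rpa1 with AL603834.1, 44 bases, at most 4 counts). Of the 46, 8 shared at least 5% of their exonic words of 31 bases with another gene of the GENCODE M21 annotation, most of all Mcm7 with Gm5487 (24.4%), Pcna with Pcna-ps2 (23.3%, at most 23 counts) and Uhrf1 with Gm5648 (21.9%, at most 7 counts). Pole2 shared 7.39% with Gm49384, a gene that the count table does not hold. Reads from such stretches can be lost or moved, so these levels are less certain.

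The analysis used edgeR 4.0.16 under R 4.3.3, with a filter of at least 1 cpm in at least 3 libraries, TMM factors, and the quasi-likelihood test of METTL7A1 against mock with no covariate, adjusted by Benjamini-Hochberg over 13166 genes. Levels are cpm on TMM-scaled library sizes, errors of levels are SD and errors of fold changes are SE. Library totals were 18386780 to 28459338 counts, and the 46 genes had 183 to 7677 counts per library. With 3 libraries per group, 95% intervals of their log2 changes extended 0.14 to 0.25 to either side. The offset for chromosome position was the median log2 change of the 40 nearest genes with an average log2 cpm over 2. Scripts were tested on simulated data. Same-numbered libraries did not deviate together (r = -0.16, 0.23 and -0.39), so numbers were not taken as pairs. Between libraries of unlike number r ranged from -0.51 (METTL7A1 replicate 1 with mock replicate 2) to 0.50 (METTL7A1 replicate 1 with mock replicate 3). Deviations shared across the groups in that way were not modelled.

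Alternatives were RLE and upper quartile scaling, 2 other filters, removal of the 20 most abundant genes, DESeq2 1.42.0, voom of limma 3.58.1, a replicate block, the neighbour offset and omission of each library. The 46 genes, the wider list and the G2/M list were chosen with earlier results of these data known. Values per library were given for the 16 called genes with the smallest p, MCM2 to MCM7, Pcna, Cdt1 and E2f1. Of the other lists at most the 5 called genes with the smallest p were named, besides Asf1a for its place within Mcm9.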

Additional observations from a re-analysis of the deposited data

How the results depend on the processing

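Mettl7a1 stayed near 8.17 under every setting tried (7.91 with the neighbour offset, 8.09 to 8.32 with a library left out), and the median change of the 46 genes lay between -0.16 and -0.11. RLE and upper quartile scaling, removal of the 20 most abundant genes, a minimum of 10 counts, DESeq2 and voom gave 21 to 23 called replication genes. These settings called 39.7% to 42.8% of all genes. With no abundance filter 10 were lower, and with the neighbour offset 8 were lower and 0 higher, while the higher counts of the wider list and the G2/M list became 7 and 1. Of all genes, 20.9% were called with no filter and 31.5% with the offset. Leaving out 1 library gave 3 to 6 higher and 10 to 17 lower replication genes, 6 to 13 higher genes of the wider list and 0 to 2 lower G2/M genes. The share of all genes called in these fits was 29.1% to 44.5%. With the replicate number as a block, 18 of the 46 genes and 36.5% of all genes were called. All 18 were among the 22, and Gins1, Fen1, Lig1 and Rpa1 lost their call. The samples share only a number.

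With no filter, signs turned for Rpa2 (0.02) and Tk1 (0.01), and with a library left out for Rpa2 (range -0.08 to 0.04), Tk1 (-0.09 to 0.07) and Uhrf1 (-0.00 to 0.09). With the offset, signs turned for Orc6 (0.07), Gmnn (0.06), Mcm4 (-0.12), Mcm10 (-0.03), Cdc45 (-0.06), Gins2 (0.08), Gins3 (0.02), Prim1 (-0.43), Pcna (-0.20), Rfc3 (0.04), Rpa2 (0.13), Dut (-0.19) and Chaf1b (-0.00), of which Rfc3 had been called lower (-0.36) and Prim1 was called with the offset alone. The cause was not tested. Gins1 had 183 to 364 counts per library, and the widest interval was that of Mcm8 (0.22 to 0.73).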
